A study of Homo sapiens with 6 samples.

Results

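The smooth muscle contractile genes ACTA2, ACTG2, TAGLN, CNN1, MYL9, TPM1, TPM2, CALD1 and LMOD1, together with SRF, were followed through knockdown of Basonuclin-2 (BNC2) in BT549 cells. They were chosen by symbol, and all 10 are rows of the deposited table of 23346 genes. BT549 is an established breast cancer cell line whose label gives its cell type as mesenchymal and its genotype as WT. 3 libraries came from cells that received BNC2 siRNA, an equal mix of 3 siRNAs bought from GenePharma, and 3 from cells that received negative control (NC) siRNA. Both groups were transfected at 20 nM with a lipid reagent, had a media change 6 h later and were harvested 6 d after transfection, so the controls share the transfection and differ in the siRNA. A single cell line and a single pool of siRNAs were used, and what follows is limited to them. The study describes the replicates as biological, while the labels number them only.

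Smooth muscle contracts when myosin light chain kinase phosphorylates the regulatory light chain of myosin II (MYL9) and myosin pulls on filaments of smooth muscle actins (ACTA2 and ACTG2). Tropomyosins (TPM1 and TPM2) lie along these filaments, caldesmon (CALD1) and calponin (CNN1) bind them and restrain myosin, transgelin (TAGLN) bundles them and leiomodin (LMOD1) starts new ones. Serum response factor (SRF) is the transcription factor that binds the CArG box in front of many of these genes. It works with myocardin or the myocardin-related factors, which free actin monomers hold inactive in the cytoplasm, or with ternary complex factors of the ETS family, which drive immediate early genes. Many carcinoma cells with mesenchymal features, like myofibroblasts, express part of this set.

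The siRNAs are shown because a short seed match to a 3′ UTR can lower an mRNA other than the intended target. Each antisense strand is written 5′ to 3′, with the seed (bases 2 to 8) in capitals.
BNC2 siRNA (1): uUUACACUgaucacaagucct
BNC2 siRNA (2): uUGUCAUAgaaugucuucctt
BNC2 siRNA (3): uUUCGGCUucguacagaggtt
NC siRNA: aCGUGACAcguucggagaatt
Among the 10 genes, a match to a seed was found in the 3′ UTR of SRF alone, for BNC2 siRNA (1). That match occurs in 1439 (13.7%) of the 10490 tested genes with an annotated 3′ UTR. BNC2 siRNA (2), BNC2 siRNA (3) and NC siRNA had a match in none of the 10, beside 10.2%, 2.19% and 3.16% of the tested genes. A match is a matter of sequence, and whether any of these sites was used was not tested.

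The libraries held 16093978 to 18246254 counts in genes. BNC2, the targeted gene, had 65.6, 51.4 and 58.5 CPM (counts scaled to library size with TMM factors) in NC siRNA and 35.4, 36.5 and 41.5 CPM in BNC2 siRNA. It was therefore lower in every BNC2 siRNA library (log2 fold change -0.63, SE 0.09, adjusted p = 8.2e-06 by edgeR's quasi-likelihood test). Testing was limited to genes that exceeded 1 CPM in at least 3 libraries, and a call was made at a Benjamini-Hochberg adjusted p of at most 0.05. Of the 12186 genes tested, 72.9% were called, 36.6% up-regulated and 36.2% down-regulated, and in 74.9% the groups did not overlap. A call on its own is thus common in these data.

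The labelled cell type was checked against markers. All 8 mesenchymal markers were tested, and 6 of them rose, by most TWIST1 (log2 fold change 1.54), CDH2 (1.36) and SNAI2 (1.15), while ZEB2 fell and PRRX1 was not called. Their summed level was 4376 to 4463 CPM in NC siRNA and 5250 (5250.4) to 5475 CPM in BNC2 siRNA. The highest level of a single marker in any library was 3510 CPM, so these sums rest largely on 1 gene. The defining markers of smooth muscle were close to absent, since MYH11, MYOCD, DES, CNN1 and LMOD1 were all below the filter and SMTN alone, at 15.2 to 18.2 CPM in NC siRNA, was tested. The 10 genes are therefore read here as cytoskeletal genes of a carcinoma line, not as markers of smooth muscle cells.

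Of the 10 genes, 7 were tested, and 5 of these were called, beside 72.9% of all genes. 4 fell (ACTA2, TAGLN, MYL9 and CALD1), beside 36.2% of all genes, and 1 rose (TPM1), beside 36.6%. TPM2 and SRF were not called. ACTG2, CNN1 and LMOD1 had too few counts to be tested. CALD1 and TAGLN were the members with large changes, both called and lower by at least 3-fold, beside 4.76% of all genes. Together with ACTA2, 3 were called and lower by at least 2-fold, beside 10.1%. The median log2 fold change of the 7 was -0.28, beside 0.00 over all genes tested, and the median absolute change of all genes was 0.44. In 5 of the 7 the groups did not overlap, beside 74.9% of all genes.

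**Figure D1:**
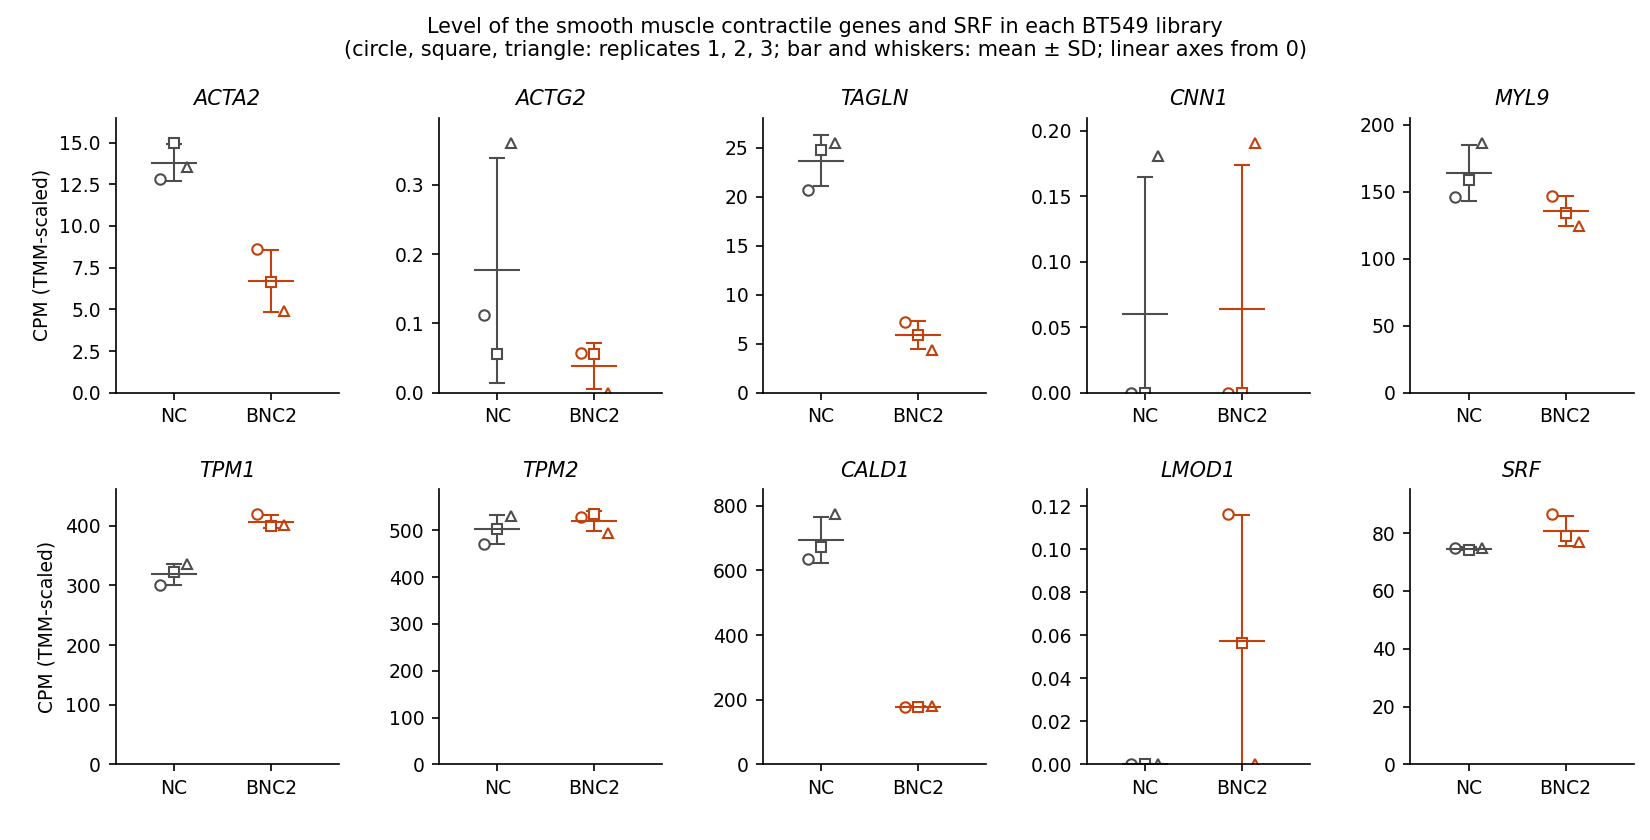
Level of each of the 10 genes in CPM (TMM-scaled, linear axes from 0) in the 3 NC siRNA and 3 BNC2 siRNA libraries, with circle, square and triangle for replicates 1, 2 and 3 and bars for mean ± SD, cut at 0. CALD1 and TAGLN fall to about 25% of control without overlap, TPM1 rises without overlap, and ACTG2, CNN1 and LMOD1 stay below 1 CPM in every library.

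CALD1 encodes caldesmon, which binds actin, tropomyosin and myosin and inhibits the actin-activated ATPase of myosin. Its level was 636, 673 and 774 CPM in NC siRNA and 178, 177 and 179.6 CPM in BNC2 siRNA. The BNC2 siRNA libraries lay far below the controls and within a narrow band. The means were 694 ± 71.3 and 178 ± 1.30 CPM (SD, n = 3). CALD1 thus fell to 25.7% of control, a log2 fold change of -1.96 (SE 0.07, adjusted p = 4.1e-13 by edgeR's quasi-likelihood test), rank 365 among 12186 genes ordered from the largest fall. The counts behind these values were 11305 to 12869 in NC siRNA and 2824 to 3142 in BNC2 siRNA. The annotation lists 24 transcripts of CALD1, and counts per gene cannot tell its smooth muscle form from the forms of other cells.

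TAGLN encodes transgelin, or SM22, an actin-bundling protein and a widely used SRF target. It had 20.7, 24.8 and 25.5 CPM in NC siRNA and 7.26, 5.92 and 4.39 CPM in BNC2 siRNA. No library of the groups overlapped. From 23.7 ± 2.59 to 5.86 ± 1.44 CPM (SD, n = 3), it fell 4.01-fold, a log2 fold change of -2.01 (SE 0.14, adjusted p = 2.1e-09 by edgeR's quasi-likelihood test) and rank 342 in the same order. These levels rest on 368 to 443 counts in NC siRNA and 69 to 125 in BNC2 siRNA.

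ACTA2 encodes smooth muscle alpha-actin, the actin by which myofibroblasts are usually recognised. Its level was 12.8, 15.0 and 13.5 CPM in NC siRNA and 8.60, 6.65 and 4.90 CPM in BNC2 siRNA. The lowest control library stood above the highest BNC2 siRNA library. ACTA2 fell from 13.8 ± 1.11 to 6.72 ± 1.85 CPM (SD, n = 3), which is 49.0% of control (log2 fold change -1.03, SE 0.16, adjusted p = 1.5e-05 by edgeR's quasi-likelihood test). ACTG2, the gamma-actin of visceral smooth muscle, had 2, 1 and 6 counts in NC siRNA and 1, 1 and 0 in BNC2 siRNA. Any difference in ACTG2 was not detectable at this depth.

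MYL9 encodes the regulatory light chain that is phosphorylated when smooth muscle contracts. It had 146.1, 158.7 and 186.5 CPM in NC siRNA and 147, 134 and 125 CPM in BNC2 siRNA. BNC2 siRNA replicate 1 lay above NC siRNA replicate 1, so the groups overlapped. MYL9 fell from 164 ± 20.7 to 135 ± 11.2 CPM (SD, n = 3). Its log2 fold change was -0.28 (SE 0.08, adjusted p = 0.0061 by edgeR's quasi-likelihood test). This fall was smaller than the median absolute change of all genes. Among the alternatives to this test its adjusted p reached 0.038.

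ACTA2, TAGLN, MYL9 and SRF had the same order within BNC2 siRNA, replicate 1 highest and replicate 3 lowest, as did the non-members TPM4, ACTB, TAGLN2 and CSRP1. The order was thus not particular to the members that fell. CALD1 did not have it, and its BNC2 siRNA libraries were within 177 to 179.6 CPM. BNC2 itself was highest in BNC2 siRNA replicate 3. With 3 libraries no correlation was computed.

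The tropomyosins moved the other way or not detectably. TPM1 had 300.05, 322 and 335 CPM in NC siRNA and 419, 399.6 and 402 CPM in BNC2 siRNA, with every BNC2 siRNA library above every control. It rose 1.28-fold from 319 ± 17.7 to 407 ± 10.9 CPM (SD, n = 3; log2 fold change 0.35, SE 0.06, adjusted p = 3.3e-05 by edgeR's quasi-likelihood test). TPM2 had 470.5, 504 and 531 CPM in NC siRNA and 528, 534 and 494 CPM in BNC2 siRNA. These groups overlapped, and a log2 fold change of 0.05 (SE 0.06) was not called (adjusted p = 0.466). Its sign was not stable, as it turned to -0.03 when libraries were scaled by total counts and to -0.02 without NC siRNA replicate 1. TPM1 is annotated with 39 transcripts, of which smooth muscle and non-muscle cells use different ones, and the counts pool them all.

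CNN1, calponin of smooth muscle, had 3 counts in NC siRNA replicate 3, 3 in BNC2 siRNA replicate 3 and 0 in the other 4 libraries. LMOD1 had 0 counts in every NC siRNA library and 2, 1 and 0 in BNC2 siRNA. A floor of 3 counts corresponds to 0.164 to 0.186 CPM in these libraries, so both genes were at or under what counting can resolve. Fitted without the filter on low counts, the adjusted p was 0.981 for CNN1, 0.210 for LMOD1 and 0.190 for ACTG2 by edgeR's quasi-likelihood test.

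SRF had 74.8, 74.0 and 74.8 CPM in NC siRNA and 86.5, 78.9 and 76.8 CPM in BNC2 siRNA. Every BNC2 siRNA library was above the controls, which were tight, but the difference was small. From 74.5 ± 0.478 to 80.8 ± 5.10 CPM (SD, n = 3), the log2 fold change was 0.12 (SE 0.06), and it was not called (adjusted p = 0.110 by edgeR's quasi-likelihood test, 0.0715 to 0.586 over the alternatives). The mRNA of SRF therefore did not fall detectably where CALD1, TAGLN and ACTA2 did, and its only seed match, to BNC2 siRNA (1), came with no call of a lower level.

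Levels of different genes can be compared only per length of transcript. In NC siRNA, using the canonical transcript, the level was 421 CPM per kb for TPM2, 262 for TPM1, 139 for CALD1, 58.8 for MYL9, 17.6 for SRF, 10.2 for ACTA2 and 6.25 for TAGLN. In BNC2 siRNA the same levels were 436 for TPM2, 334 for TPM1, 35.6 for CALD1, 48.5 for MYL9, 19.1 for SRF, 4.98 for ACTA2 and 1.55 for TAGLN. CALD1 thus passed from above MYL9 to below it on this scale. With the median length of coding transcripts in place of the canonical one, CALD1 stood above TPM1 in NC siRNA (344 against 246 CPM per kb), and TAGLN (19.3) above SRF (17.6) and ACTA2 (8.53). On that scale CALD1 stayed above MYL9 in BNC2 siRNA (88.2 against 71.0 CPM per kb). The order of these neighbours depends on the length used.

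The genes lie at separate loci, given here in GRCh37 with GENCODE release 44. CALD1 is at chr7:134429003-134655480 (+), TAGLN at chr11:117070086-117078180 (+), ACTA2 at chr10:90694831-90751096 (−), MYL9 at chr20:35169900-35179850 (+) and SRF at chr6:43139007-43149244 (+). TPM1 is at chr15:63334819-63364114 (+), TPM2 at chr9:35681989-35690053 (−), ACTG2 at chr2:74119441-74146992 (+), CNN1 at chr19:11649582-11661138 (+) and LMOD1 at chr1:201865584-201915676 (−). No canonical transcript of the 10 shares a 75-base window with a gene at another locus. Some non-muscle relatives compared below do, most of all TPM4 (9.6% of its windows), TAGLN2 (5.7%) and ACTB (2.9%). Reads that map to several places were not counted, and the effect on the levels of these relatives was not tested. ACTA2 overlaps STAMBPL1, ACTA2-AS1 and FAS on the opposite strand, TAGLN overlaps PCSK7, MYL9 overlaps DLGAP4-AS1, TPM1 overlaps TPM1-AS and a further long non-coding RNA, LMOD1 overlaps one, and CALD1 overlaps an unnamed long non-coding RNA. On the same strand, where stranded counts cannot separate reads, ACTA2 and CALD1 each overlap an unnamed long non-coding RNA and TAGLN an unnamed transcript to be experimentally checked. Reads on the strand opposite to CALD1 numbered 526 to 707 in NC siRNA and 51 to 112 in BNC2 siRNA, or 4.19% to 5.26% and 1.64% to 3.44% of the reads of both strands. CALD1 thus had lower counts on both strands.

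Each contractile gene has relatives that non-muscle cells use, and the direction was not shared within families. Of 19 such non-muscle relatives, 15 were tested, and 5 rose, 5 fell and 5 were not called, while the log2 fold changes had a median of 0.07. With total-count scaling, and without BNC2 siRNA replicate 1, 3 rose. Over all genes the median was 0.00, with 36.6% up-regulated and 36.2% down-regulated, and the counts of every list are set beside these shares. TAGLN3, TMOD1, TMOD4 and MYH14 were not tested. TPM4, a tropomyosin of non-muscle stress fibres, had the largest rise, from 494, 546 and 613 CPM in NC siRNA to 1761, 1663 and 1577 CPM in BNC2 siRNA (log2 fold change 1.60, SE 0.07, adjusted p = 8.7e-12). MYH9, the heavy chain of non-muscle myosin, rose by 0.73 on the log2 scale, and ACTB, cytoplasmic beta-actin, by 0.28. MYL12B and MYL12A, the regulatory light chains that most cells use, fell by 0.71 and 0.49, and MYL6, the essential light chain, by 0.34.

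**Figure D2:**
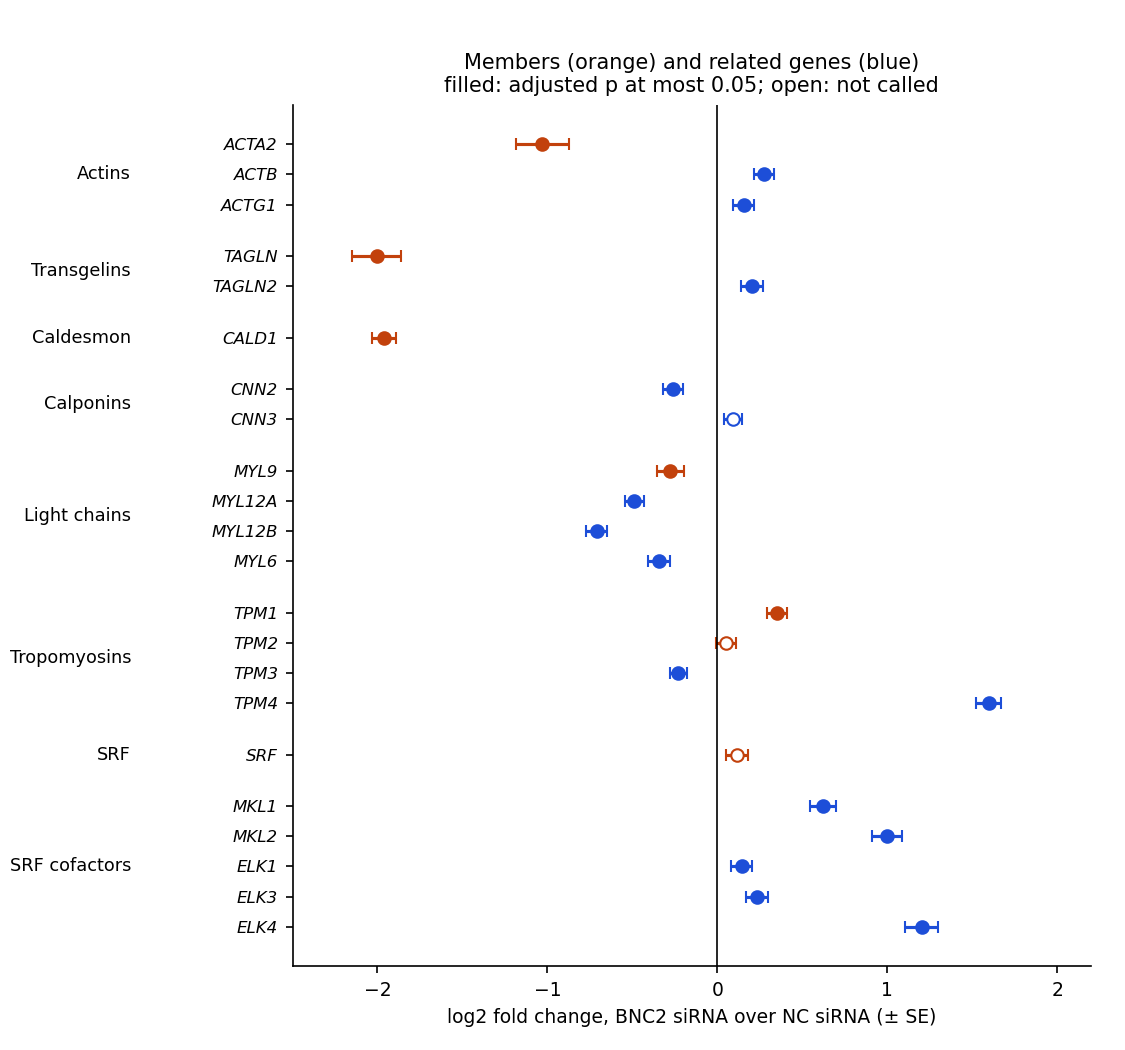
Log2 fold change of BNC2 siRNA over NC siRNA with its SE for the tested members (orange), their relatives and the main SRF cofactors (blue), with filled points where the adjusted p was at most 0.05. CALD1, TAGLN and ACTA2 lie at -1.96, -2.01 and -1.03 while their neighbours ACTB and TAGLN2 lie above 0, and TPM4 lies at 1.60 beside 0.35 for TPM1.

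Ratios within a library do not depend on how libraries are scaled, and 9 pairs of a member and a relative were compared by exact permutation tests, two-sided, for which 3 against 3 allows no p below 0.1. The log2 ratio of ACTA2 to ACTB was -8.34 ± 0.07 in NC siRNA and -9.69 ± 0.34 in BNC2 siRNA (SD, n = 3; exact p = 0.1), a difference of -1.34 without overlap. The ratio of TAGLN to TAGLN2 differed by -2.23, that of TPM1 to TPM4 by -1.25 and that of TPM2 to TPM4 by -1.55, each without overlap. Other ratios were higher in BNC2 siRNA without overlap: TPM1 to TPM3 by 0.58, MYL9 to MYL12B by 0.44, TPM1 to TPM2 by 0.30 and TPM2 to TPM3 by 0.28. MYL9 to MYL12A differed by 0.22, with overlap (exact p = 0.3). After adjustment over the 9 pairs the smallest p was 0.1125, so none of the ratios can pass a threshold of 0.05 in this design.

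Summed over TPM1 to TPM4, the tropomyosin reads were 1837, 1951 and 2051 CPM in NC siRNA and 3207, 3092 and 2950 (2950.1) CPM in BNC2 siRNA. The sum was 1.58-fold higher without overlap (exact p = 0.1, the smallest possible). The share of TPM4 in these reads was 28.2% ± 1.52 in NC siRNA and 54.0% ± 0.762 in BNC2 siRNA (SD, n = 3). The shares of TPM1 and TPM2 were 16.4% and 25.8% in NC siRNA and 13.2% and 16.8% in BNC2 siRNA, so TPM1 took a smaller share although its own level rose. For the regulatory light chains, the sum of MYL9, MYL12A and MYL12B was 859 ± 32.3 CPM in NC siRNA and 605 ± 27.0 CPM in BNC2 siRNA (SD, n = 3). The share of MYL9 was 19.0% ± 1.90 in NC siRNA and 22.3% ± 1.00 in BNC2 siRNA, without overlap. The sum of the transgelins overlapped between groups (310 ± 7.35 and 336 ± 30.4 CPM), whereas the share of TAGLN was 7.62% in NC siRNA and 1.73% in BNC2 siRNA. ACTA2 made up 0.177% and 0.0734% of the actin reads. These are shares of reads, not corrected for length.

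**Figure D3:**
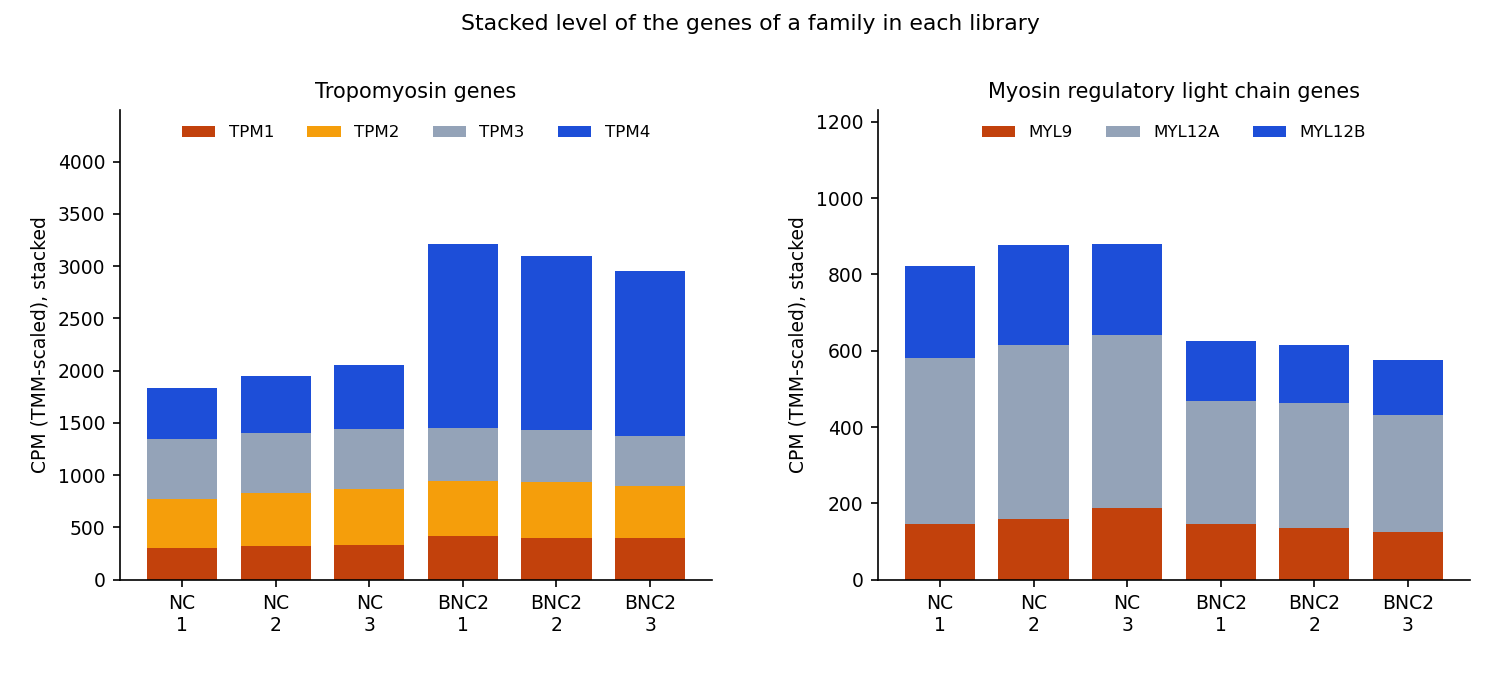
Stacked level in CPM (TMM-scaled, linear axes from 0) of the tropomyosin genes and of the myosin regulatory light chain genes in each of the 6 libraries. TPM4 (blue, left) makes up 28.2% of the tropomyosin reads in NC siRNA and 54.0% in BNC2 siRNA, and MYL9 (orange, right) makes up 19.0% and 22.3% of light chain reads, whose sum is lower in every BNC2 siRNA library.

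Other genes of the sarcomere and of smooth muscle were mostly at low levels, as 28 of 36 did not pass the filter of 1 CPM in 3 libraries. Of the 8 tested, 3 rose and 5 fell, with a median log2 fold change of -0.39. SYNPO2, an actin-binding protein of the Z-disc, had 19, 38 and 19 counts in NC siRNA and 3, 1 and 3 in BNC2 siRNA. These last are at or under the floor of 3 counts, and SYNPO2 passed the filter through NC siRNA alone. SYNPO2 is counted among the 5 that fell and in the median of -0.39. Its own call and fold change are not relied on. Without it, among genes whose mean over the 6 libraries exceeded 1 CPM, 7 were tested, 3 rose and 4 fell, with a median of -0.34. SMTN, smoothelin, fell by 0.58. MYH3 rose by 0.89, likewise at a low level, MYLK, the kinase that phosphorylates MYL9, by 0.88, and SYNM, the intermediate filament protein synemin, by 0.68. MYLK was at 38.2, 34.9 and 34.6 CPM in NC siRNA and at 63.9, 65.7 and 68.9 CPM in BNC2 siRNA. The kinase thus rose without overlap where its substrate MYL9 fell.

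SRF cofactors changed in both directions around an SRF that was not called. Of 20, 17 were tested, 9 rose and 6 fell, and the median log2 fold change was 0.14. Over the alternatives 6 to 9 rose, and 6 with total-count scaling, without NC siRNA replicate 2 and without BNC2 siRNA replicate 3. MKL1, also known as MRTF-A, had 32.8, 33.7 and 29.5 CPM in NC siRNA and 51.1, 46.9 and 49.7 CPM in BNC2 siRNA (log2 fold change 0.62, adjusted p = 1.4e-06). MKL2, or MRTF-B, had 20.8, 17.8 and 17.6 CPM in NC siRNA and 35.1, 38.3 and 39.0 CPM in BNC2 siRNA (log2 fold change 1.00, adjusted p = 3.1e-08). Both myocardin-related factors therefore rose without overlap, while their relative MYOCD had at most 1 count in a library. Of the ternary complex factors, ELK4 rose by 1.20 on the log2 scale, ELK3 by 0.23 and ELK1 by 0.14. FHL2, a LIM protein that binds SRF, rose by 2.08 from a low level. It had 0.732 to 1.56 CPM in the NC siRNA libraries and 4.18 to 6.17 CPM in BNC2 siRNA. NC siRNA replicate 1 lay below 1 CPM, so FHL2 passed the filter only with its BNC2 siRNA libraries. The size of its rise and its rank are therefore not relied on. FHL2 is still counted among the 9 that rose and in the median of 0.14, and likewise among the cytoskeletal targets below. The largest falls were those of FHL1 (-2.47), KLF5 (-2.41), a zinc finger factor of smooth muscle and epithelia, and CSRP1 (-1.86), a LIM protein that bridges SRF and GATA factors. GATA4 and PHACTR1 were not tested, and KLF4 was not called. SAP30, which was counted in this list although it is known as a subunit of a histone deacetylase complex and not as an SRF cofactor, was not called either.

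Genes known as SRF targets were read as 2 lists. Of 11 immediate early genes, 9 were tested, of which 6 fell and 1 rose, with a median log2 fold change of -0.62. NR4A1 fell by 2.38 and ZFP36 by 1.21. NR4A1 had 5.29 to 8.79 CPM in NC siRNA and 0.763 to 1.69 CPM in BNC2 siRNA. BNC2 siRNA replicate 3 lay below 1 CPM, so NR4A1 passed the filter only with its NC siRNA libraries. The size of its fall is therefore not relied on, although NR4A1 is counted among the 6 that fell and in the median of -0.62. EGR1 fell by 2.09, with 16.5 to 17.9 CPM in NC siRNA and 3.37 to 4.62 CPM in BNC2 siRNA. FOS rose by 0.95, and EGR2 and EGR3 were not tested. Of 26 cytoskeletal targets all were tested, 13 rose and 11 fell, with a median of 0.12. Besides FHL2, which has the limit given above, TPM4 (1.60) and CYR61 (1.36), a secreted matricellular protein, rose most. FLNC, filamin of muscle (-1.64), PDLIM5, a PDZ and LIM protein of the Z-disc (-1.46), and NEXN, nexilin (-0.83), fell most. CALD1, TAGLN and ACTA2 were thus accompanied by falls of some SRF targets and rises of others. The lists share genes with each other, as FHL2, TPM4 and CNN2 show.

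**Figure D4:**
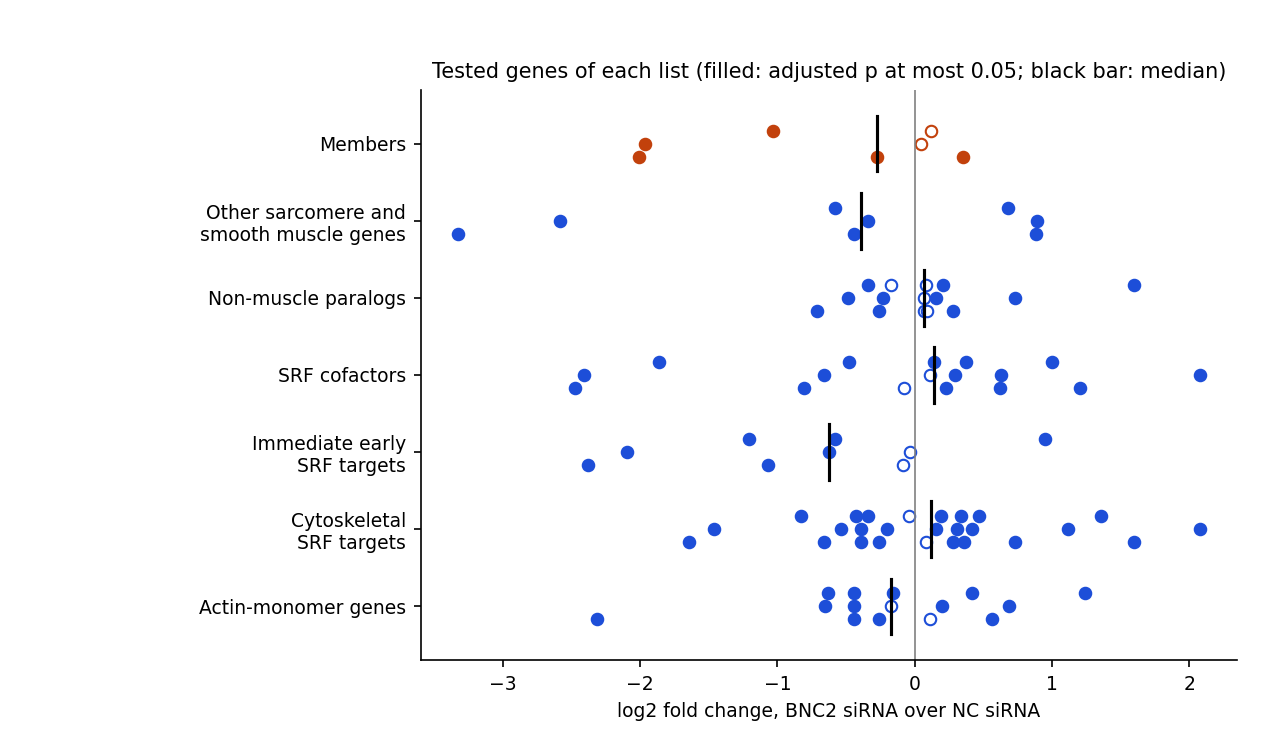
Log2 fold change of BNC2 siRNA over NC siRNA for the tested genes of each list, with filled points where the adjusted p was at most 0.05 and a black bar at the median. The medians run from -0.62 (immediate early SRF targets) to 0.14 (SRF cofactors), and the tested members run from -2.01 (TAGLN) to 0.35 (TPM1). SYNPO2, NR4A1 and FHL2 are drawn and enter the medians, although they passed the filter only with the libraries of the group where they were high.

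Genes that set the pool of free actin bear on the myocardin-related factors. Of 16 actin-monomer genes, 15 were tested, 5 rose and 8 fell, with a median log2 fold change of -0.17. CAP2, a cyclase-associated protein that binds monomers, rose by 1.24, TMSB4X, thymosin beta, by 0.69 and SSH2, a cofilin phosphatase, by 0.56. GSN, the filament-severing gelsolin, fell by 2.32, PFN1, profilin, by 0.65 and CAP1 by 0.63, and COBL was not tested.

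Markers of other cells were followed in the same libraries. The 6 defining smooth muscle markers summed to 15.7 to 18.6 CPM in NC siRNA and 11.1 to 12.4 CPM in BNC2 siRNA, almost all of it SMTN. The endothelial list was at 0 to 0.639 CPM in sum and the skeletal or cardiac list at 0 to 0.338 CPM, with CDH5, MYOD1, MYOG, MYH2 and NPPA at 0 in every library. Pericyte markers, some of which are shared by other mesenchymal cells, summed to 99.8 to 108.9 CPM in NC siRNA and 79.6 to 87.9 CPM in BNC2 siRNA, where 3 of 5 were tested and all 3 fell while KCNJ8 was at 0. Myoepithelial markers summed to 76.8 to 86.4 CPM and 70.8 to 71.9 CPM, with 2 of 5 tested and both lower. Epithelial markers summed to 4.21 to 6.53 CPM and 1.57 to 1.69 CPM, where KRT18 alone of 9 was tested and EPCAM and ESRP1 were at 0. The part of these shifts in the falls of CALD1, TAGLN and ACTA2 was not tested. Fewer cells that express a gene and less RNA in each cell cannot be told apart in bulk libraries.

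The CArG box was searched on both strands from 250 bases before to 50 after the RefSeq start of each gene. The box is read as CC, then 6 bases that are A or T, then GG. It was present in 351 (1.29%) of 27305 promoters and 2 or more times in 9 of them (0.033%). Of the 10 genes, 8 were matched to the promoter table, TAGLN and MYL9 being the others, and ACTG2 and SRF held 2 boxes each. TPM4 held 1. The windows of ACTG2, SRF and TPM4 are shown because they carry these boxes, in GRCh38.p14, on the + strand, 5′ to 3′, with each box in capitals. SRF lies at chr6:43171019-43171318, ACTG2 at chr2:73892758-73893057 and TPM4 at chr19:16067288-16067587.
SRF: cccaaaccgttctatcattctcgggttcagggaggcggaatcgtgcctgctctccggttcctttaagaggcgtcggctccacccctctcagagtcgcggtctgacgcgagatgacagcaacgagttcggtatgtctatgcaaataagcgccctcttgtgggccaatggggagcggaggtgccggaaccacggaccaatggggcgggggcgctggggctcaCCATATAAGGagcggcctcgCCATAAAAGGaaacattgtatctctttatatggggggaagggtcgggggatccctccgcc
ACTG2: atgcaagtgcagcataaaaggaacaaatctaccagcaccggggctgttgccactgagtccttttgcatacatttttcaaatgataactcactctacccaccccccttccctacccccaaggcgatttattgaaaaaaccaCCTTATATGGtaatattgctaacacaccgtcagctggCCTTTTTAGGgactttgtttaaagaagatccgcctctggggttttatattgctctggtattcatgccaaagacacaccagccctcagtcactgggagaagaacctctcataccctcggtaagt
TPM4: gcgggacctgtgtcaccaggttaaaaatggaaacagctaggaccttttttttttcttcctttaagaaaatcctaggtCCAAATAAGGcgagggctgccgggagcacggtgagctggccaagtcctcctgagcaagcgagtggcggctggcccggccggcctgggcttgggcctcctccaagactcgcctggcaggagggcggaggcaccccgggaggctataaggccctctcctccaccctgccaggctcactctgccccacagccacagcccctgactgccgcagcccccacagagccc
In SRF the boxes CCATATAAGG and CCATAAAAGG start 30 and 10 bases before the gene start, and in ACTG2 the boxes CCTTATATGG and CCTTTTTAGG start 110 and 73 bases before it. In TPM4 the box CCAAATAAGG starts 173 bases before it. The letters of the box were not in the windows of ACTA2, CALD1, TPM1, TPM2, CNN1 and LMOD1. For a gene with several start sites, such as CALD1 and ACTA2, the window may not hold the promoter in use. Of 16 other genes whose windows were searched likewise (relatives of the members, MYLK, MKL1, MKL2 and BNC2), 6 held a box. Besides TPM4 these were ACTG1, which rose by 0.15 on the log2 scale, MYLK, which rose by 0.88, CNN2, which fell by 0.26, and ACTA1 and ACTC1, which were not tested. ACTA1 had 14, 20 and 11 counts in NC siRNA and 3, 1 and 1 in BNC2 siRNA. Genes with a box thus lay on both sides of 0, and of the members with a box SRF was not called and ACTG2 was not tested.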

How the data were processed

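The authors isolated poly(A) RNA, prepared libraries with the KAPA RNA HyperPrep kit and aligned single-end reads with STAR (2.6.1d, per the submitters' processing notes) to hg19 with the iGenomes UCSC annotation. The deposited values are raw counts per gene, which equal the reverse-strand counts of the library tables in all 23346 genes. Reads not assigned to a gene (37.7% to 41.1%) were left out. These were unmapped, mapped to several places, ambiguous between genes or in no gene on the counted strand. The last kind made up 25.1% to 27.2% of all reads. Counts were analysed in R 4.3.3 with edgeR 4.0.16 (TMM factors 0.972 to 1.04, quasi-likelihood test, Benjamini-Hochberg over 12186 genes) and limma 3.58.1. Alternatives were the likelihood ratio test, DESeq2 1.42.0, its size factors, total-count scaling, no filter, filterByExpr, a replicate block, both strands and leaving out each library. On simulated counts the test recovered 200 of 200 genes changed 2-fold, with 9 false calls among 12106 genes. That simulation changed few genes and gave every gene the same dispersion, whereas 72.9% of genes were called in the data. It therefore checks that the code runs and does not measure false calls among the 8879 genes called. P-values measure the spread between these libraries, and floors cover counting error only.

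The members and lists were chosen with earlier results of these data known. Named genes are all members, the genes of the paralog pairs, the main SRF cofactors, and the 3 largest rises and falls called in each list, plus the untested genes of a list where these were at most 5. 4 of 13 planned ratios, those with ACTG2, CNN1 or LMOD1, were not computed because these genes were not tested. Protein identity was not analysed here. Results of some genes and of a further list are not reported here. Annotation used Python 3.11.15, GENCODE release 44 on GRCh37 and RefSeq promoters of GRCh38.p14. The labels and the methods name different lipid reagents for the transfection.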

Additional observations from a re-analysis of the deposited data

How the results depend on the processing

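Of 98 fold changes of members under an alternative, 96 kept their direction and their side of the threshold. All 81 ratios moved by less than the SD between replicates pooled over both groups. For ACTA2 to ACTB, TAGLN to TAGLN2 and TPM1 to TPM2 that SD is larger than the SD of NC siRNA alone. The replicate block returns the main ratio by construction, and leaving out 1 library of 3 cannot shift a mean by that much. Those settings could therefore not have moved a ratio, and only both strands and a pseudocount of 5 counts could have. Of the counts of calls, 249 of 252 stayed within 1.5 times. That range takes in 6 to 9 SRF cofactors and 10 to 13 cytoskeletal targets that rose, and 8084 to 9662 genes called in all. The log2 fold change of TPM2 turned to -0.026 with total-count scaling and, over the libraries left out in turn, ran from -0.022 to 0.080, negative without NC siRNA replicate 1. Of the non-muscle relatives, 3 in place of 5 rose with total-count scaling, and 3 to 5 when libraries were left out (3 without BNC2 siRNA replicate 1). Without the filter on low counts, 8 in place of 5 of the other sarcomere and smooth muscle genes fell, since more genes were tested. A filter on the mean over all 6 libraries, chosen after seeing the data, took SYNPO2 alone out of the lists. For the TPM2 and relative results the cause was not tested. The members called (1 up, 4 down) stayed the same in all alternatives run. Their log2 fold changes ranged from -2.18 to -1.85 for TAGLN, from -2.05 to -1.90 for CALD1, from -1.24 to -0.86 for ACTA2, from -0.38 to -0.19 for MYL9, from 0.28 to 0.38 for TPM1 and from 0.04 to 0.15 for SRF. Total-count scaling moved the median of all genes to -0.07 and the share of calls that rose from 50.3% to 44.5%.

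The labels give both groups the numbers 1 to 3, and deviations of same-numbered libraries correlated at -0.21, -0.08 and -0.13, so the numbers were not taken as pairs. A replicate block gave 8399 calls in place of 8879 and changed no call of a member, with a log2 fold change of -1.96 for CALD1, -2.01 for TAGLN, -1.05 for ACTA2, -0.27 for MYL9, 0.35 for TPM1, 0.05 for TPM2 and 0.11 for SRF. Depth limits ACTG2, CNN1 and LMOD1, for which 3 counts correspond to 0.164 to 0.186 CPM.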
